A study of Homo sapiens with 3 samples.

Results

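The 37 histone genes described here are the listed genes whose symbols have the form of a core or linker histone gene: names beginning with H1-, H2AC, H2AX, H2AZ, H2AJ, H2BC, H3C, H3- or H4C, and the older names beginning with HIST. They are 37 of the 5932 genes in the deposited series table, and 114 symbols in the gene name table have this form. Of the 37, 31 are replication-dependent genes and 6 are variants, among them H1-10, H2AX, H2AZ1, H2AZ2 and H3-5. The members were found by symbol alone, without use of their values.

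The study used 95D, a human lung cancer line of wild-type genotype, and asked which RNAs bind the long non-coding RNA DAMER. It holds 3 libraries with 1 library each for control culture, glucose-deficient culture and glutamine-deficient culture. Cells were seeded for 24 h in complete medium, and the deprived cells then spent 48 h in glucose-free or glutamine-free DMEM with 10% dialyzed serum, while the control label gives control conditions for 48 h. The protocols describe capture from lysate with a biotinylated DAMER probe made in vitro, followed by depletion of ribosomal RNA, whereas the titles name RNA sequencing only, so whether the control library is a capture or plain RNA cannot be told apart. With 1 library per group no difference has a replicate check, so the text holds no p-values. Each interval below is at 95% and covers counting error only.

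Replication-dependent histone genes supply the H2A, H2B, H3 and H4 proteins that form the nucleosome core and the H1 proteins that bind linker DNA, mostly during S phase when new DNA is packaged. They lie in clusters, most have no introns, and their mRNAs usually end in a conserved stem-loop instead of a poly(A) tail. Variants are encoded outside these clusters, are made through the cell cycle, and usually have polyadenylated mRNAs.

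The stem-loop is shown first because it separates these mRNAs from most others. The element was searched as a pattern of 16 letters on the sense strand of the protein-coding transcripts of GENCODE release 29 (GRCh38). The pattern fixes the base at some positions and allows different bases at others. A gene counts as holding the element where a transcript matches this pattern. Differences between forms can therefore appear only at positions where the pattern allows them, and elements outside it were not counted. Each line gives 30 transcript bases from 5′ to 3′, in which capitals mark the stem-loop.
H3C10: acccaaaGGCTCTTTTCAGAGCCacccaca
H2BC21: ctccaaaGGCTCTTTTCAGAGCCacccacc
H2BC5: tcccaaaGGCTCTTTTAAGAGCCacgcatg
H2AC11: aaccaacGGCTCTTTTCAGGGCCacccacg
H4C5: aatcaaaGGCCCTTTTCAGGGCCgcccaca
H2AX: ccacaaaGGCCCTTTTAAGGGCCaccaccg

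The commonest form, shown for H3C10 and H2BC21, was found in 8 listed histone genes. Positions are counted from 1 at the 5′ end of the stem-loop, with the base of the commonest form first. The form of H2BC4, H2BC5 and H2BC7 differed from it by C10A. The H4 genes H4C2, H4C5 and H4C8 shared T4C and A13G, and H2AC11 carried A13G. H2AX differed by T4C, C10A and A13G, and was the only variant of the 6 in which the element was found. In all, 15 of the 31 replication-dependent genes held the element. The annotation of 18 of those 31 runs at least 30 nt past the coding end, so for the others these letters could not be read. Where found, the element began 27 to 59 nt past the coding end, so 30 nt need not cover it in all 18 either. Among 19684 protein-coding genes, 50 (0.254%) held the element, and 33 of the 50 were histone genes.

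In the control library the 37 genes held 5451.5 recovered fragments, or 0.144% (0.140 to 0.148) of 3781862 fragments. Their levels ran from 4.89 to 198 RPM (the deposited unit, in which every library has the same total), with a median of 29.6 RPM against 14.8 RPM over all listed genes. RPM takes no account of gene length. Of the 37, 10 lay below the median of the listed genes. Replication-dependent genes gave 85.9% (85.0 to 86.8) of the histone fragments and variants 14.1% (13.2 to 15.0). The 3 genes with the most fragments, H1-4, H4C5 and H2BC12, made up 37.1% (35.8 to 38.4) of the total. The median over the replication-dependent genes was 25.8 RPM and that over the variants 32.9 RPM.

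The listed set is incomplete. GENCODE release 29 annotates 71 protein-coding genes with HIST names, of which 30 were listed: 3 of 6 H1, 9 of 17 H2A, 11 of 18 H2B, 2 of 15 H3 and 5 of 15 H4 genes. H3C2 was listed but is not in that release. Every listed gene that was lower in a deprived library had at least 9.5 control fragments. The sources used here do not say how regions were chosen for the table, so the level of the histone genes outside it was not analysed here.

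**Figure D1:**
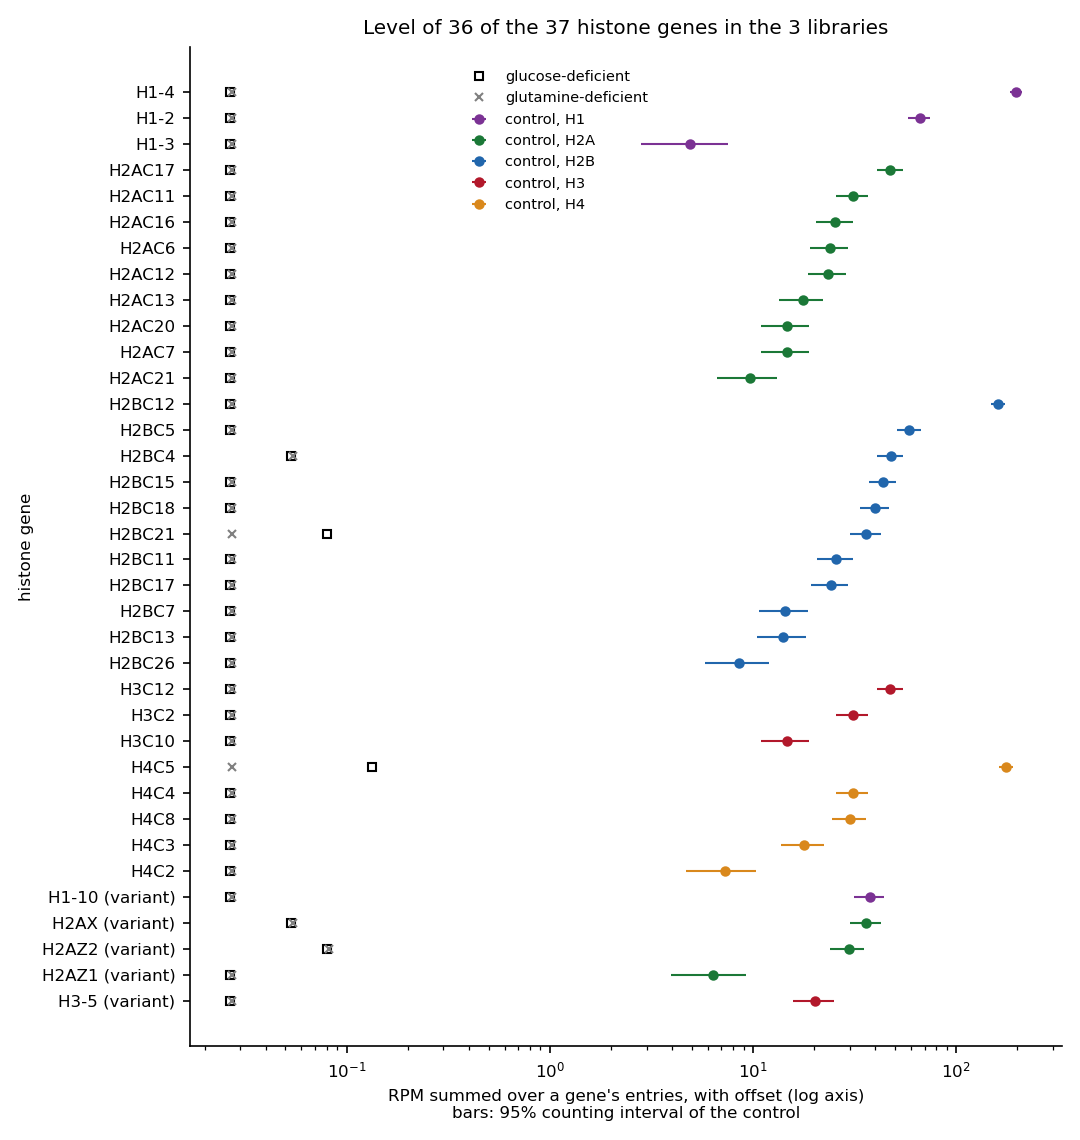
Levels of 36 of the 37 histone genes, 1 row per gene, ordered by class and then by control level, with variants at the foot. Filled points are control values with 95% counting intervals, squares are glucose-deficient and crosses glutamine-deficient values, on a log axis of RPM with the deposited offset. On the scale of all fragments, control values span 4.89 to 198 RPM and all deprived values lie at or below 0.133 RPM. With ATF4 left out of the totals many calls change, mostly for genes with 0 fragments that stand at the offset. A gene with 0 fragments stands at its offset alone, which is higher where a gene has more than 1 entry.

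Among linker histones the spread was wide. H1-4 (chr6:26156354-26157107, plus strand) was at 198 RPM in the control (747 fragments, 184 to 212), H1-2 (chr6:26055787-26056428, minus strand) at 66.2 RPM (250 fragments, 58.2 to 74.8), and H1-3 (chr6:26234268-26234933, minus strand) at 4.89 RPM (18 fragments, 2.82 to 7.52). The 3 intervals do not overlap. The RPM of H1-4 was 40.4-fold that of H1-3. The listed regions of H1-4 and H1-3 are shared with genes outside the histones, so these levels cannot be assigned to the histone genes alone. Per kb of coding sequence the levels were 301 RPM for H1-4, 104 RPM for H1-2 and 7.38 RPM for H1-3, so the same order held per length.

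H2B genes had the largest share of the replication-dependent fragments. The 11 H2B genes held 38.2% (36.8 to 39.6), the 3 H1 genes 21.7% (20.5 to 22.9), the 5 H4 genes 21.2% (20.0 to 22.4), the 9 H2A genes 16.7% (15.6 to 17.8) and the 3 H3 genes 7.50% (6.76 to 8.29). The shares add to more than 100% because 2 regions serve genes of different classes. When histone genes that share a region with a gene outside the histones were left out, the H4 share was 3.78% and the H1 share 10.1%. Both therefore rest on such shared regions.

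H2BC12 (chr6:27146418-27146798, minus strand) stood apart within its class. Its control level was 161 RPM (608 fragments, 148 to 174), followed by H2BC5 (chr6:26158146-26171349, plus strand) at 58.8 RPM (222 fragments, 51.2 to 67.0). H2BC4 followed at 47.9 RPM (180 fragments), H2BC15 at 43.8 RPM (165 fragments) and H2BC18 at 39.8 RPM (150 fragments), and the intervals of these neighbours overlap. Of the H2BC4 fragments, 67 lie in an entry shared with the H4 gene H4C3. The other H2BC4 entry held 113 fragments (30.0 RPM), below H2BC15 and H2BC18, so its place in this order rests on the shared entry. H2BC26, a gene of the HIST3 cluster on chromosome 1, had the lowest H2B level with 8.59 RPM (32 fragments, 5.79 to 11.9). Per coding kb the H2B genes ran from 22.7 to 426 RPM with a median of 87.9 RPM.

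H2A genes were more even. H2AC17 (chr6:27892757-27893149, minus strand) was the highest at 47.5 RPM (179 fragments, 40.7 to 54.8), then H2AC11 (chr6:27133042-27135291, plus strand) at 31.1 RPM (117 fragments, 25.6 to 37.1). The lowest, H2AC21, was at 9.65 RPM (36 fragments). The range of the 9 H2A genes was 4.92-fold, against 18.7-fold over the H2B genes, both in RPM. The coding lengths of H2A genes lie between 384 and 390 nt, and per coding kb their levels ran from 24.7 to 122 RPM.

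Of the H3 genes, H3C12 was at 47.5 RPM (179 fragments), H3C2 at 31.1 RPM (117 fragments, 25.6 to 37.1) and H3C10 at 14.7 RPM (55 fragments, 11.0 to 18.9). H3C12 and H2AC17 were listed with the same value and overlap on the minus strand of chromosome 6 in the annotation, so their 179 fragments cannot be told apart. H4C5 (chr6:26204552-26206038, plus strand) was the highest H4 gene at 177 RPM (669 fragments, 164 to 191), above H4C4 at 31.1 RPM (117 fragments), H4C8 at 30.0 RPM (113 fragments) and H4C3 at 17.8 RPM (67 fragments). H4C2, the lowest H4 gene, was at 7.27 RPM (27 fragments, 4.70 to 10.4). Which of the top genes ranks first depends on the length used. Per coding kb H4C5 led with 573 RPM, before H2BC12 with 426 RPM and H1-4 with 301 RPM, while per kb of the longest protein-coding transcript H2BC12 led with 422 RPM, H1-4 followed with 262 RPM and H4C5 had 119 RPM. The second length was chosen after the values were seen.

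By position, the 13 genes on chromosome 6 between H4C2 (start 26026815) and H4C8 (end 26285638) held 54.3% (52.8 to 55.7) of the replication-dependent fragments. All 10 genes that share a region with a gene outside the histones are among these 13. They include H1-4 with 747 and H4C5 with 669 of the 2542 fragments. The 12 genes on chromosome 6 between H2BC11 (start 27125897) and H2BC17 (end 27893843) held 34.5% (33.1 to 35.9), with 1 H2B gene, H2BC12, giving 608 of the 1615 fragments. The larger share of the 13 genes therefore rests on their shared regions. The 4 HIST2 genes on chromosome 1 held 8.05% (7.29 to 8.87) and H2BC26 0.683% (0.468 to 0.963). H3C2, with 117 fragments, has no position in the annotation used and is in none of these groups.

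Among the variants, H2AZ1 lay below the median of the listed genes and H1-10, H2AX, H2AZ2 and H3-5 above it. H1-10, a linker histone encoded on chromosome 3, was at 37.5 RPM (141.5 fragments, 31.5 to 44.1), and H2AX, which is phosphorylated at DNA breaks, at 36.2 RPM over 2 entries (136 fragments, 30.2 to 42.5). H2AZ2 and H2AZ1 encode the H2A.Z proteins found around active promoters. H2AZ2 was at 29.6 RPM over 3 entries (110.5 fragments, 24.0 to 35.2) and H2AZ1 at 6.35 RPM in 1 entry (23.5 fragments, 3.96 to 9.28), with intervals that do not overlap. H3-5, which encodes an H3.3-like protein, was at 20.2 RPM (76 fragments, 15.8 to 25.2). Per coding kb H2AX had 84.4 RPM, H2AZ2 77.1 RPM and H2AZ1 16.5 RPM, while per kb of the longest protein-coding transcript H2AZ2 had 7.79 RPM and H2AZ1 6.48 RPM, so the gap between these 2 depends on the length used.

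In 7 cases an H2A and an H2B gene stand side by side on opposite strands, with 5′ ends 219 to 331 nt apart, an arrangement in which the pair shares an intergenic promoter region. Per coding length, the ratio of H2B to H2A was not the same over these pairs, and for several it depends on the length used. H2BC12 was at 426 RPM per coding kb and its partner H2AC12 at 60.9, a ratio of 7.02 (5.60 to 8.88), and per kb of the longest protein-coding transcript the ratio was again 7.02. In the opposite direction, H2BC17 was at 64.0 and H2AC17 at 122 RPM per coding kb, a ratio of 0.525 (0.403 to 0.679), and per transcript kb it was 0.524, with the H2AC17 fragments shared with H3C12. For H2AC13 with H2BC13 the interval included 1 by either length, at 0.829 (0.566 to 1.21) per coding kb and 0.828 per transcript kb.

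In the other 4 pairs the ratio moved with the length used, though H2BC4 was above H2AC6 by both lengths. H2BC21 against H2AC20 was 2.53 (1.84 to 3.53) per coding kb and 0.440 (0.319 to 0.613) per transcript kb, which turns the direction. For H2BC4 against H2AC6 the ratio was 2.06 (1.59 to 2.69) per coding kb and 5.02 (3.88 to 6.54) per transcript kb, but 1.30 (0.973 to 1.73) per coding kb once the region that H4C3 shares was left out. H2BC11 against H2AC11 was 0.855 (0.647 to 1.13) per coding kb and 1.96 (1.48 to 2.59) per transcript kb, and H2BC7 against H2AC7 was 1.01 (0.683 to 1.5) and 0.323 (0.217 to 0.478). The transcript length and the removal of the shared region were chosen after the values were seen.

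**Figure D2:**
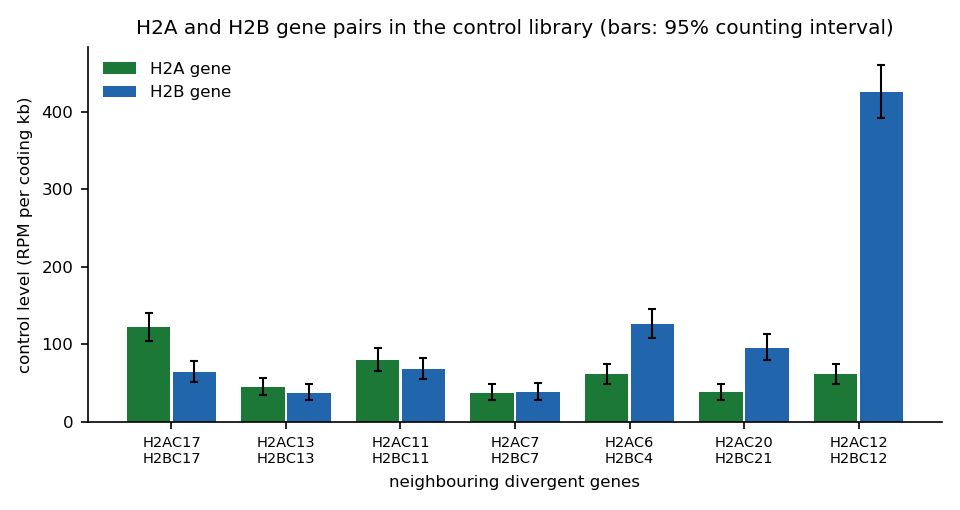
Control levels of the 7 neighbouring H2A and H2B genes in RPM per kb of coding sequence, with H2A genes in green, H2B genes in blue and bars for the 95% counting interval. Per coding kb H2B is above H2A in 3 pairs, with H2BC12 at 426 RPM against H2AC12 at 60.9 RPM as the widest gap, H2A is above H2B in the H2AC17 pair, and in 3 pairs the interval of the ratio includes 1. Per transcript kb the H2BC21 pair turns to 0.440, and without a shared region the H2BC4 interval includes 1.

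Because control levels differ so much between neighbours, the promoters of the 3 genes with the most fragments are shown. Each is the 120 bases before the RefSeq start (GRCh38.p14), read 5′ to 3′ on the strand of the gene, with capitals for the motifs TATAAA and CCAAT and their reverse complements TTTATA and ATTGG. H1-4 is chr6:26156209-26156328 on the plus strand, H4C5 is chr6:26204490-26204609 on the plus strand, and H2BC12 is chr6:27146859-27146978 on the minus strand.
H1-4: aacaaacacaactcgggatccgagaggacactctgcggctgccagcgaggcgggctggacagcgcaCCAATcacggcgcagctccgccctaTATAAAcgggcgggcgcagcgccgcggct
H4C5: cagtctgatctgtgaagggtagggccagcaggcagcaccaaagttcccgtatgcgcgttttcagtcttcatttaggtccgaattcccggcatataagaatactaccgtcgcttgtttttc
H2BC12: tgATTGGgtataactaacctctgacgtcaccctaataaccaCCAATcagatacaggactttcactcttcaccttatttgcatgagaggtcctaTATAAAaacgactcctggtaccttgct

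TATAAA is the core of the TATA box and CCAAT the element bound by NF-Y. The H1-4 and H2BC12 windows each held both, and the printed H4C5 window held neither set of letters. Only exact matches were counted, so near matches such as catataag in the H4C5 window are left out. That window follows the RefSeq start and runs past the GENCODE start of the gene, 26204552. Over the 250 bases before the start, TATAAA or its reverse complement was found in 19 of 28 replication-dependent promoters (67.9%) and in 11.1% of 27305 promoters in the table. CCAAT or its reverse complement was found in 24 of 28 (85.7%) against 33.0% of all. Both were found in 17 of 28 (60.7%) against 4.01% of all. The 250-base windows of neighbouring H2A and H2B genes on opposite strands can overlap, so the same letters can count for both genes. The 28 promoters are therefore not independent of each other. Of 4 variant promoters in the table, 3 held TATAAA and 3 held CCAAT. The 2 motifs have no letters in common in the printed windows. These are matches of letters, and no binding was measured.

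In the deprived libraries the histone genes were at or near 0 fragments, on a scale where ATF4 and its pseudogenes took 99.9% of all fragments in each. Without glucose 34 of the 37 genes had 0 fragments, and without glutamine all 37 did, beside 90.9% and 99.2% of all listed genes, although these libraries held 18775818 and 18301607 fragments. A gene with 1 entry and 0 fragments is listed at 0.0266 RPM without glucose and 0.0273 RPM without glutamine, from an offset of 0.5 fragment. H4C5 was at 177 RPM in the control, 0.133 RPM (2 fragments) without glucose and 0.0273 RPM (0 fragments) without glutamine. H2BC21 was at 36.1 RPM, 0.0799 RPM (1 fragment) and 0.0273 RPM (0 fragments). The 37 genes together had 4 fragments in the glucose-deficient library, and every control value lay above both deprived values.

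In log2(RPM + 1), all 37 histone genes were at least 2-fold lower without glucose than in the control, beside 99.9% of 5931 genes tested. Under scalings that set ATF4 aside many of these calls change, in histone genes mostly where a gene has 0 fragments and stands at the offset. All 37 were also lower without glutamine, beside 99.9% of the 5928 genes tested, with the same dependence on scaling. Higher genes made up 0.118% of those tested for glucose and 0.0675% for glutamine, and no histone gene was among them. The count of lower histone genes is thus the background of these libraries. With a pseudocount of 5 RPM, 36 of the 37 were lower in each comparison, beside 90.7% and 90.8% of all genes, and 0.0843% and 0.0675% were higher.

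With totals that leave out ATF4 and its pseudogenes, 2 histone genes were lower and 16 higher without glucose, beside 1.67% and 87.8% of all genes, and 3 were lower and 11 higher without glutamine, beside 2.43% and 84.0%. TMM scaling gave 7 lower and 6 higher (3.93% and 66.1% of all genes) for glucose and 4 lower and 6 higher (3.1% and 78.5%) for glutamine. Median-of-ratios scaling gave 2 lower and 23 higher (0.742% and 93.3%) for glucose and 3 lower and 26 higher (1.16% and 93.9%) for glutamine. On the scale that leaves out ATF4, an entry with 0 fragments stands at 38.7 RPM without glucose and 34.6 RPM without glutamine through the 0.5-fragment offset alone. Of the 16 higher genes without glucose 14 had 0 fragments there, as had all 11 without glutamine, so those calls rest on the offset. With TMM all 6 higher genes in each comparison had 0 fragments. With median-of-ratios factors 21 of the 23 without glucose and all 26 without glutamine did. A lower call for a gene with 0 fragments also sets its control level against the offset alone. The 2 comparisons share the control library, and all values of the 37 genes in it were the same in both.

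The median log2 difference over the histone genes was -4.83 for glucose and -4.82 for glutamine, against -3.92 and -3.93 over all tested genes. Over the replication-dependent genes it was -4.71 and -4.70 and over the variants -4.98 in both. The extremes were H1-4 with -7.60 in both and H1-3 with -2.52 in both, and they follow the control level, since nearly every deprived value was 0. Taken at a floor of 3 fragments per library, H1-4 was at least 1236-fold lower without glucose and at least 1205-fold lower without glutamine on the scale of all fragments. H2BC12 was lower by at least 1006-fold without glucose and at least 981-fold without glutamine, and H4C5 at least 1079-fold lower without glutamine. For H1-3, the gene with the fewest control fragments, the same bounds came to 29.8-fold and 29-fold. Fewer cells and less RNA per cell, or less capture, cannot be told apart in a library of this kind.

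A count that needs no pseudocount is the number of fragments left per 1000 control fragments. In the glucose-deficient library, histone regions had 4 fragments against 5451.5 in the control, or 0.734 per 1000 (0.200 to 1.88). Other listed regions outside ATF4, those with at least 18 control fragments, had 1.08 per 1000 (1.01 to 1.15), which lies inside the histone interval. At their rate the histone regions would have had 5.89 fragments. By kind, replication-dependent genes had 0.641 per 1000 (0.132 to 1.87) and variants 1.30 (0.0329 to 7.27). In the glutamine-deficient library, histone regions had 0 per 1000 (0 to 0.677), against 0.154 (0.128 to 0.183) over the other regions and 0.0393 (0.0263 to 0.0564) when mitochondrial genes were left out. At those rates 0.839 and 0.214 fragments would have been found. A difference of the histone regions from the other listed regions was thus not detectable at this depth. Nearly all listed genes were lower on the scale of all fragments, so these rates do not stand for RNA outside the list. The glucose and glutamine intervals of the histone regions overlap. Between the deprived libraries themselves only 16 genes reached 1 RPM in either, none of them a histone gene, and 18.8% of the 16 were higher without glucose than without glutamine.

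**Figure D3:**
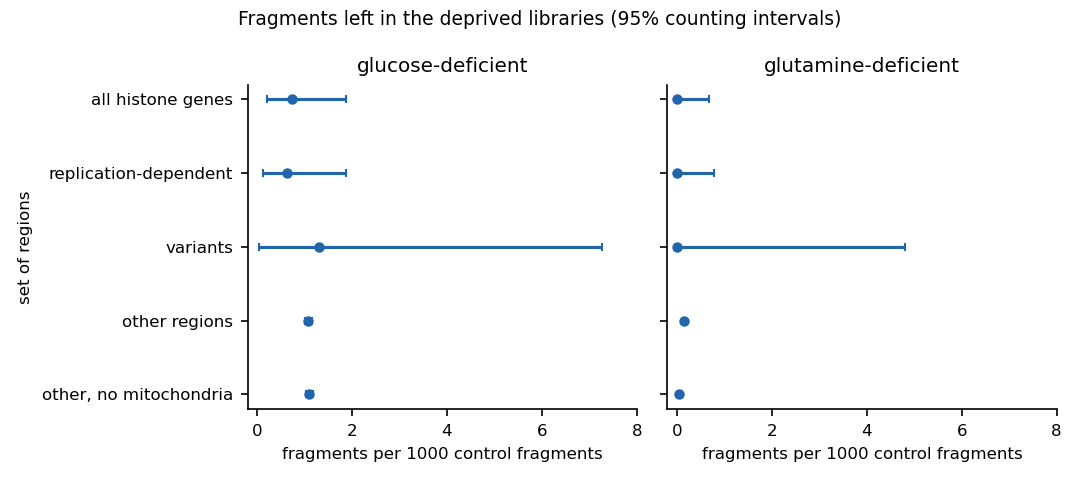
Fragments left in the glucose-deficient (left) and glutamine-deficient (right) library per 1000 control fragments, for all histone regions, replication-dependent genes, variants, other listed regions with at least 18 control fragments and the same without mitochondrial genes, each with its 95% counting interval. The histone intervals, 0.200 to 1.88 and 0 to 0.677, include the values of the other regions, 1.08 and 0.154.

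Outside ATF4 and its pseudogenes the deprived libraries held 12936 and 14450 fragments. A floor of 3 fragments then equals 232 RPM of those fragments without glucose and 208 RPM without glutamine. No histone gene reached either value in the control, where H1-4 was the highest with 198 RPM. Whether a single histone gene changed relative to the RNA outside ATF4 was therefore not detectable at this depth. Pooled, the 37 genes held 1441 RPM in the control, above both values, beside 4 fragments without glucose and 0 without glutamine. The limit thus holds for single genes and not for the pooled fragments.

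Genes that act on histone mRNA or protein were at the background of these libraries in the same way. In a list of 19 genes for 3′ end processing, 14 were listed and all 14 were lower by at least 2-fold on the scale of all fragments in both libraries, each with 0 fragments, beside 99.9% of all genes lower and 90.9% (glucose) and 99.2% (glutamine) at 0 fragments. Their median log2 difference was -4.01 in both, against -3.92 and -3.93 over all genes. CASP8AP2, a component of histone locus bodies, was at 40.1 RPM in the control. CPSF2 and FIP1L1, of the general cleavage and polyadenylation machinery, were at 36.6 and 34.8 RPM. WDR33, SYMPK and CSTF3, of the same machinery, were at 25.4, 18.9 and 17.6 RPM. SLBP, the protein that binds the stem-loop, was not among the listed genes, nor were LSM10, LSM11 and ZNF473 of the U7 particle.

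In the list for transcription and cell-cycle control, 7 of 12 genes were listed and all 7 were lower in both libraries with 0 fragments and a median of -3.74, beside 99.9% of all genes lower. NPAT, the coactivator of histone gene transcription, was at 12.7 RPM in the control and CDK2, the kinase that acts on it, at 14.7 RPM. YY1 and GON4L were at 28.0 and 24.7 RPM, and E2F1 and COIL, the marker of Cajal bodies, at 7.14 and 5.69 RPM. For turnover of histone mRNA, 10 of 15 genes were listed and all 10 were lower in both libraries with 0 fragments and a median of -4.55, again beside 99.9% of all genes. SMG1, UPF1 and the uridylyltransferase TUT4 were at 70.3, 24.2 and 46.7 RPM in the control, and DIS3, EXOSC10 and LSM4 at 50.5, 24.3 and 32.9 RPM.

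Chaperones and depositing factors had more control fragments. Of 28 genes 24 were listed, and all 24 were lower in both libraries, beside 99.9% of all genes, with a median of -5.40 for glucose and -5.39 for glutamine, against -3.92 and -3.93 over all genes. In the glucose-deficient library 7 of the 24 had a fragment, beside 9.09% of all genes, with 2 for SRCAP against 577.5 in the control and 1 each for MCM2, CHAF1A, SET, SUPT16H, NASP and ASF1B. These 7 were named after their values were seen. The 24 genes had 8 fragments there against 5489 in the control, or 1.46 per 1000 (0.629 to 2.87). At the 1.08 per 1000 of the other listed regions 5.93 would have been found, so no difference from those regions was detectable. None of the 24 had a fragment in the glutamine-deficient library. NPM1, SRCAP, ATRX, SSRP1, SUPT6H and ANP32E had the highest control levels, 164, 154, 121, 119, 110 and 99.6 RPM. Of 12 variants under other symbols only MACROH2A1 was listed, at 15.9 RPM. In all these lists the directions hold on the scale of all fragments, and other scalings were not run for them.

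Assignment of fragments to single histone genes has limits that the table itself shows. The 37 genes had 43 entries, which form 41 distinct regions, and 13 of the genes shared a region with another gene. Of these, 10 shared it with a gene outside the histones, chiefly with ENSG00000291336 (10 histone genes) and ENSG00000291338 (7 histone genes), both unnamed in the table. H1-4 and H4C5 are among the 10, and H2BC12 is not. H2BC4 and H4C3 shared a region of 17.8 RPM. Near-identical coding sequence can also split or move reads of 150 nt. The longest exact coding stretch that a replication-dependent gene shared with another annotated gene of its class was 26 to 332 nt, with a median of 59 nt. Only H2AC13, with 332 nt in common with H2AC14, reached the read length, and H2AC20 came next with 149 nt. The variants shared 15 to 54 nt.

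Replication-dependent genes also differed from other genes in how their control values fell on the counting steps. Over all listed control values 63.3% were whole fragments and the rest lay at 0.5 fragment, with no value under 1000 RPM more than 0.00191 fragment from such a step. None of the 30 distinct regions of replication-dependent genes lay at 0.5 fragment (0 to 11.6%), while 7 of 11 regions of variants did (63.6%, 30.8 to 89.1). Among genes outside the histones it was 37.2% (34.0 to 40.5) of 895 regions for genes with 1 exon in every transcript and 36.5% (35.7 to 37.4) of 11336 regions for genes with more exons. Of 30 annotated replication-dependent genes 22 have 1 exon in every transcript, and of 6 variants 3. The gap was thus seen against other genes of 1 exon as well, and its cause was not tested. All histone values in the deprived libraries were whole.

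**Figure D4:**
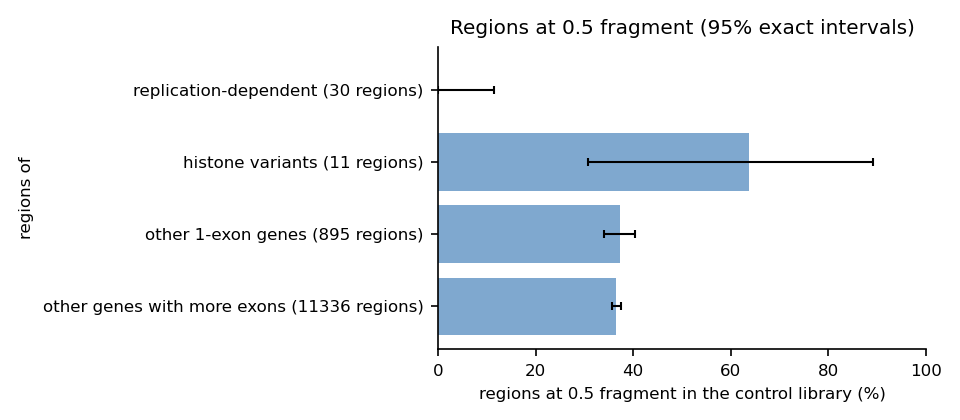
Share of distinct control regions that lie at 0.5 fragment, in percent, for replication-dependent histone genes (30 regions), histone variants (11), other genes with 1 exon in every transcript (895) and other genes with more exons (11336), with exact binomial 95% intervals. The share is 0 for replication-dependent genes, with an upper bound of 11.6%, and 36.5 to 63.6% for the rest.

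The labelled cell line gave few lineage markers. KRT8 at 6.48 RPM was the only one of 8 epithelial markers listed and none of 6 lung lineage markers was. Of 7 mesenchymal markers VIM was at 77.7 RPM and ZEB1 at 5.16 RPM, of 6 leukocyte markers only CSF1R was listed, at 10.3 RPM, and no erythroid or endothelial marker was. ATF4 was at 237 RPM in the control and at 998517 RPM without glucose and 998557 RPM without glutamine. Listed regions held 22.7% of the control fragments.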

How the data were processed

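The deposited values are RPM per the file headers, for 1 control, 1 glucose-deficient and 1 glutamine-deficient library. Alignment to hg38 used HISAT2 2.0.5 per the submitters' processing notes, while the sources used here name no annotation, rule for choosing regions or use of strand. As the glutamine-deficient label points to the glucose column, the column equal to that sample's own deposited file was used. RPM values rose in steps of 0.264, 0.0533 and 0.0546 with an offset of 0.5 fragment, which gave whole or 0.5 fragments. Library totals were 3781862, 18775818 and 18301607 fragments.

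Entries of a gene were added up. The 2-fold rule was applied to log2(RPM + 1), which understates differences of low genes, in genes that reached 1 RPM in either library of a comparison. Entries next to each other with equal values were 1 region. Levels have exact Poisson, shares Clopper-Pearson and ratios conditional binomial intervals, from fragments without the offset. Bounds used a floor of 3 fragments and leave out the control's counting error. Without replicates no test was run. Data for the 5932 genes were simulated at control depth, 1 library against 1. Of 4-fold differences 100% were found, and 0.471% of unchanged genes were called. The changed genes were drawn only from those above a minimum of control fragments, so the 100% does not cover low genes such as H1-3. The deprived libraries are far shallower outside ATF4, and the simulation does not describe them.

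Named genes were the 10 highest and 3 lowest replication-dependent genes, the 2 highest of each class, the variants, genes with a fragment in a deprived library, and up to 6 highest genes of each list; genes outside this rule illustrate pairs, sequences, shared regions or counts. Members and lists were chosen with earlier results of these data known. The values of 1 variant enter the counts but are not reported here. Coordinates come from GENCODE release 29, which holds 36 of the 37 genes, and promoters from RefSeq. Python 3.11.15, pandas 2.3.3, scipy 1.17.1 and R 4.3.3 with edgeR 4.0.16 (TMM and median-of-ratios factors only) were used.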

Additional observations from a re-analysis of the deposited data

How the results depend on the processing

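No paired analysis was possible because each group has 1 library. On the scale of all fragments, the 37 lower calls held without a filter and with the offset taken off, and 36 were lower in each comparison with a pseudocount of 5 RPM. With genes that share no region, 24 of 24 were lower in both comparisons, with medians of -4.70 and -4.70. The median log2 difference for glucose and glutamine was -7.66 and -7.67 with a pseudocount of 0.1 RPM, -2.77 and -2.77 with 5 RPM, and -4.71 and -4.70 with the highest region of each gene. Scaling changed the calls. With TMM, 7 and 4 were lower and the medians were -0.20 and 0.25, against 1.33 and 1.75 over all genes. With median-of-ratios factors, 2 and 3 were lower at medians of 1.22 and 1.47, against 2.74 and 2.98 over all genes. With totals without ATF4 and its pseudogenes, 2 and 3 were lower at 0.68 and 0.50, against 2.20 and 2.0. The median-of-ratios factors rest on 23 of 5928 genes with fragments in all 3 libraries. TMM works on pairs of libraries, and 539 genes had fragments without glucose and 46 without glutamine. An entry at 0 fragments then stands at 20.8 and 29 RPM (TMM) or 56.3 and 68.7 RPM (median of ratios) through the offset.

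The histone share of the control library was 0.144%, 0.0860% without the genes that share a region outside the histones, 0.124% without H1-4, and 0.634% of the listed fragments. Without those sharing genes, left out whole, the class shares were 10.1% for H1, 25.6% for H2A, 53.6% for H2B, 14.1% for H3 and 3.78% for H4. Without H1-4 they were 6.81%, 19.9%, 45.4%, 8.92% and 25.2%. Fragments left per 1000 control fragments stayed within their intervals under each alternative. Of the neighbouring genes, H2BC21 against H2AC20 turned from 2.53 per coding kb to 0.440 per transcript kb, through the longer annotated transcript of H2BC21. The single control library of 3781862 fragments limits the levels, and 12936 and 14450 fragments outside ATF4 limit the deprived values.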

Other observations

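Some histone genes far apart in the genome had equal control values. H2AC11, H3C2 and H4C4 each had 117 fragments, and H2AC7, H2AC20 and H3C10 each had 55. Their entries are not next to each other in the table, and they were counted as separate regions.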
